A study of Mus musculus with 32 samples.

Results

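The adult myosin heavy chain genes Myh1, Myh2, Myh4, Myh7 and Myh7b were followed across RNA sequencing libraries of quadriceps muscle from 32 mice. They were chosen by gene name and are 5 of the 53801 gene identifiers in each table. Each library came from 1 mouse, and each of 8 groups held 4 mice. The groups combined 2 genotypes, 2 ages (5 and 25 weeks) and both sexes. Wild-type (WT) mice were compared with mice homozygous for the Col6a2 tm1(KOMP)Vlcg allele (Col6a2-/-). Col6a2 encodes a chain of collagen VI, a microfibril-forming collagen of the matrix around muscle fibres. The allele came from a C57BL/6N resource and was backcrossed onto C57BL/6J. RNA was extracted from sections of the frozen muscle, so each value mixes all fibre types and the other cells between them.

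Myosin heavy chain is the motor protein of the thick filament. Each muscle fibre is classed by the heavy chain that it mainly makes. That chain largely sets how fast the fibre contracts, and it tends to go along with how the fibre fuels contraction. Myh4 encodes the chain of the fastest, glycolytic IIB fibres, Myh1 that of fast IIX fibres and Myh2 that of fast oxidative IIA fibres. Myh7 encodes the beta or slow chain of type I fibres, which is also a heart chain. Myh7b is an ancient relative whose transcript is made in heart and slow muscle and is the host of a microRNA. Mouse quadriceps is known as a mainly fast muscle with a small oxidative, slow deep portion.

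In GRCm38, as the tables give it, the 3 fast genes lie in a row on the plus strand of chromosome 11. Myh2 (ENSMUSG00000033196) spans chr11:67171027-67197517, Myh1 (ENSMUSG00000056328) chr11:67200052-67224575 and Myh4 (ENSMUSG00000057003) chr11:67238029-67260446. The 3 together cover 89.42 kb, with 2534 bases between Myh2 and Myh1 and 13453 bases between Myh1 and Myh4. Myh7 (ENSMUSG00000053093) is on the minus strand at chr14:54970684-54994626 and Myh7b (ENSMUSG00000074652) on the plus strand at chr2:155611212-155634307. All 5 are annotated as protein-coding.

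The 3 fast genes changed relative to each other in these mice, so their promoters are shown. Each is the RefSeq sequence (GRCm38.p6, plus strand) from 250 bases before to 50 bases after the RefSeq start, at chr11:67170777-67171076 for Myh2, chr11:67199852-67200151 for Myh1 and chr11:67237562-67237861 for Myh4. The RefSeq start of Myh1 lies 50 bases downstream and that of Myh4 217 bases upstream of the gene start in the tables, and that of Myh2 is the same. The capitals mark the longest run that the 3 share.
Myh2: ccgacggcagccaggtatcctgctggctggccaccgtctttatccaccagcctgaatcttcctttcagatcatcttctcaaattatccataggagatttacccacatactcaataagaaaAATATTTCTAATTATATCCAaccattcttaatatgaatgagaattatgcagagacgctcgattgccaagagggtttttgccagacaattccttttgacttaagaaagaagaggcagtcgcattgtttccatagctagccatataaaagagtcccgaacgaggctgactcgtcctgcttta
Myh1: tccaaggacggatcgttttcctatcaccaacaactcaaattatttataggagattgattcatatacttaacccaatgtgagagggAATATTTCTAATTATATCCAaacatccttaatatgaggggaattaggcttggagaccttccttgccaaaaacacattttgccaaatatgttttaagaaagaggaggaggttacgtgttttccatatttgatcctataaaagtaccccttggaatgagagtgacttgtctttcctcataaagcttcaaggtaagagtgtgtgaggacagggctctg
Myh4: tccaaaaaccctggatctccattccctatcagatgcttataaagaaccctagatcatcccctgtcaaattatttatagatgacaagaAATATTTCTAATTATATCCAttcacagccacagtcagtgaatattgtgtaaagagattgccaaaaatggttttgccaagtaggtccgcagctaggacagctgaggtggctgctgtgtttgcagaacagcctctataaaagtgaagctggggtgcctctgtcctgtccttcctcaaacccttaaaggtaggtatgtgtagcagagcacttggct

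That run is 20 bases long, starts at positions -130, -165 and -163 from the RefSeq starts of Myh2, Myh1 and Myh4, and was found in 3 of 32851 RefSeq mouse promoters of this length (0.00913%), those of these 3 genes. Motifs were searched on both strands. TATAAAA occurred once in each of the 3 and in 5.48% of all promoters. It began at position 10 in Myh2, after the RefSeq start, and at -32 in Myh1 and -31 in Myh4, before it. CATTCC occurred 0 times in Myh2 and once each in Myh1 and Myh4, against 14.7% of all promoters. The MEF2 motif, which reads alike on both strands and was counted once a site, occurred 0, 1 and 1 times in Myh2, Myh1 and Myh4 (3.19% of all promoters) and the CArG motif 0, 0 and 1 times (1.63%). CANNTG, the E-box, occurred 0, 0 and 3 times, and 72.3% of all promoters held it. These letter matches describe the sequences only.

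The members are close copies of each other, which bears on how reads can be assigned. The longest coding transcripts of Myh1 and Myh2 were 90.63% identical, those of Myh1 and Myh4 89.97% and those of Myh2 and Myh4 88.34%. Myh7 was 79.29 to 80.51% identical to the fast chains and Myh7b 74.23 to 76.09% identical to the other members. Of all 75-base windows, 16.58% in Myh1, 16.29% in Myh2, 9.677% in Myh4 and 15.25% in Myh7 also occurred in another myosin heavy chain, and 0% in Myh7b. All shared windows of Myh7 were in Myh6, the alpha heart chain. Of 150-base windows, 2.495% in Myh1, 2.056% in Myh2, 0.511% in Myh4 and 5.427% in Myh7 were shared, and 0% in Myh7b. How reads from shared windows were divided is not given in the sources used here, so levels of the members that hold them are uncertain to that extent. Fewer fibres of a type and less RNA per fibre cannot be told apart in whole muscle.

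Values are in TPM, a transcript abundance scaled by transcript length and library total, which can be compared between genes. Depth is known only relatively, since the tables hold no read counts: coverage per unit of FPKM ranged from 3.68 to 7.58 over the 32 libraries. Col6a2 itself was at 6.60 to 51.2 TPM in the 16 WT libraries and at 0 to 0.171 TPM in the 16 Col6a2-/- libraries. All 6 skeletal muscle markers passed the filter, and of 6 heart markers Nppa, Nppb and Tnni3 were under 1 TPM in every library. The 3 other heart markers passed it: Myh6 at a mean of 5.80 TPM, Tnnt2 at 2.45 TPM and Actc1, cardiac actin, which developing skeletal muscle also makes, at 15.3 to 2879 TPM. The summed heart list ran from 469 to 2883 TPM in 5-week WT and from 411 to 1708 TPM in 5-week Col6a2-/- mice, and from 18.9 to 172 TPM at 25 weeks. Mitochondrial genes took 31.9 to 46.9% and Rn7s RNAs 20.8 to 30.5% of the TPM. In 4 libraries the median correlation with the other mice of the group, over all tested genes, was lower than in every group mate by more than 0.002: WT 5 weeks male 3, WT 25 weeks male 4, Col6a2-/- 5 weeks female 2 and Col6a2-/- 25 weeks female 4. That limit was set after the data were seen. These 4 libraries also had the highest Myh4 share of their groups, so many of the results are given with and without them. Leaving them out removes extreme values of that share and narrows the spread that its tests use. Smaller p-values of shares and ratios without them are therefore no separate support.

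The 5 members differed by orders of magnitude and kept 1 order in all libraries. In TPM, Myh4 was above Myh1, Myh1 above Myh2, Myh2 above Myh7 and Myh7 above Myh7b in 32 of 32. The median ratio of Myh4 to Myh1 was 4.51 (1.75 to 26.6), that of Myh1 to Myh2 2.42 (1.38 to 4.46), that of Myh2 to Myh7 10.9 (1.27 to 769) and that of Myh7 to Myh7b 76.2 (3.20 to 207). The median level over all libraries was 4354 TPM for Myh4, 923 TPM for Myh1, 471 TPM for Myh2, 42.4 TPM for Myh7 and 0.529 TPM for Myh7b. Together the 5 took 0.352 to 0.741% of the TPM of a library. They made up 96.3 to 97.8% of the TPM of 14 myosin heavy chain genes, and Myh8, the perinatal chain, most of the rest (1.71 to 2.0%). Of the 75-base windows of Myh8, 12.92% also occurred in another myosin heavy chain, 6.848% in Myh2, and of its 150-base windows 1.6%. The Myh8 level is uncertain to that extent.

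**Figure D1:**
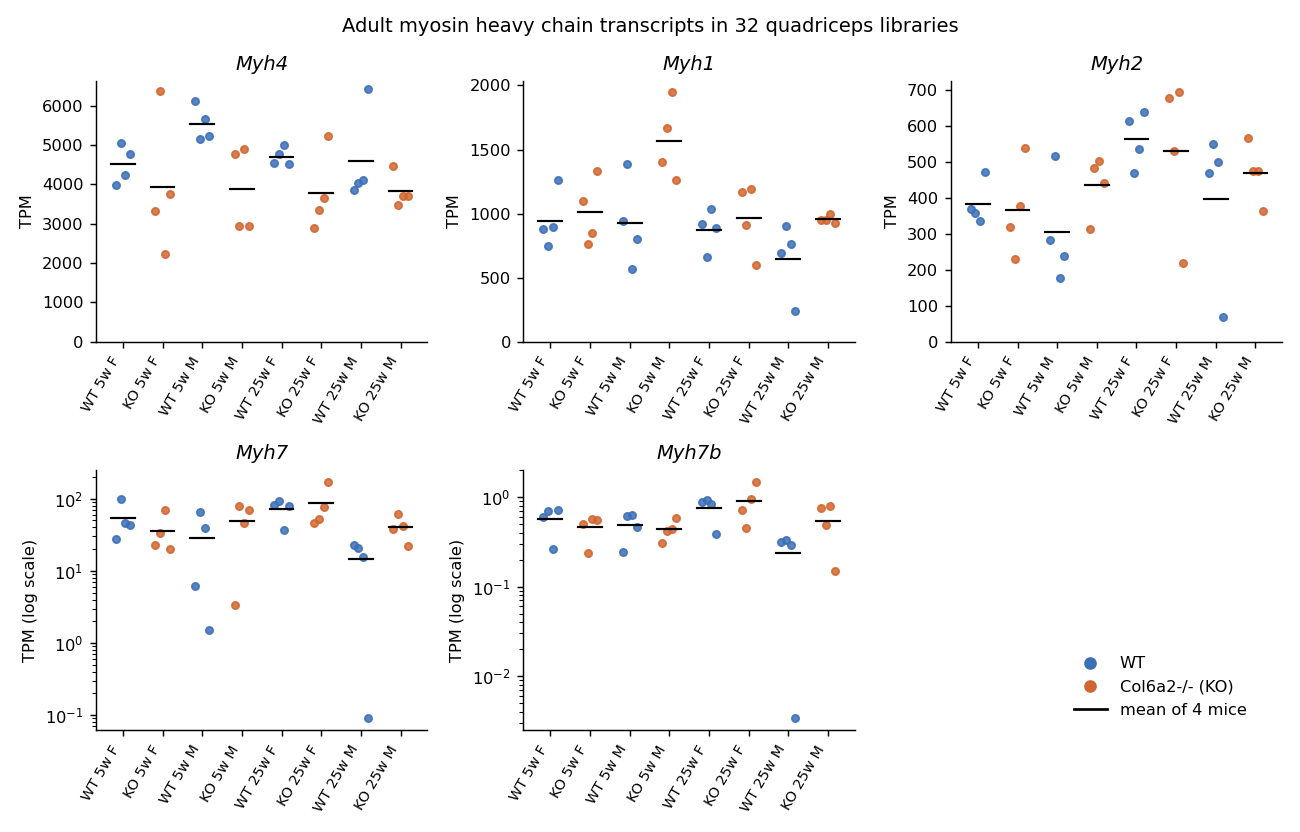
TPM of each member in each of the 32 mice, by group (WT or KO for Col6a2-/-, age in weeks, F or M); points are mice and lines are means of 4. The axes of Myh4, Myh1 and Myh2 start at 0 and those of Myh7 and Myh7b are logarithmic; Myh4 was highest in every mouse, and WT 25 weeks male 4 had the lowest Myh1, Myh2, Myh7 and Myh7b of all 32.

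Myh4, the IIB chain, was lower in Col6a2-/- than in WT muscle at 5 weeks. In WT females its 4 values were 3978, 5041, 4239 and 4783 TPM, and in WT males 6119, 5143, 5673 and 5238 TPM. In Col6a2-/- females they were 3324, 6379, 2222 and 3758 TPM, and in Col6a2-/- males 4763, 2930, 4909 and 2931 TPM. In males every WT value lay above every Col6a2-/- value, while in females the single value of 6379 TPM made the groups overlap. In 7 of 8 Col6a2-/- mice the level lay below the sex-matched WT mean.

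The difference in log2(TPM + 1) at 5 weeks was -0.43 (SE 0.157, n = 8 and 8, limma with Benjamini-Hochberg adjusted p = 0.0456), a 0.744-fold level. Over all 12817 tested genes the median difference was 0.15, so Myh4 fell by 0.57 relative to it. In this comparison 2.14% of tested genes were called lower and 25.4% were called in either direction. The 3253 genes called became 1993 without the libraries that stand apart, 1907 with only the libraries of the contrast and 1553 with a filter at 5 TPM. The share called lower depends on scaling: 274 genes were called lower here, 1479 after median-of-ratios scaling and 1672 after quantile normalization. Myh4 was the only 1 of the 4 tested members called in any of the 12 comparisons, the sex by age term included, where 3.43% of genes were called. No member had the 8 WT and 8 Col6a2-/- values apart without overlap, which held for 1.3% of genes at 5 weeks and 0.694% at 25 weeks. The call was close to the threshold: leaving out single libraries moved the value between -0.56 and -0.31 and lost the call in 19 of 32 cases, and quantile normalization gave -0.29 (adjusted p = 0.172). At -0.43 the call was also lost with the replicate number as a block (limma adjusted p = 0.0547). The same held with only the libraries of the contrast (limma adjusted p = 0.098) and without a filter (limma adjusted p = 0.161). Without the 4 libraries that stand apart it was -0.56 (adjusted p = 0.00238).

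At 25 weeks the Myh4 levels of the 8 WT mice had a lowest value of 3855, a median of 4522 and a highest of 6419 TPM, and those of the 8 Col6a2-/- mice 2878, 3680 and 5234 TPM. The ranges overlapped, though 7 of 8 Col6a2-/- mice again lay below the WT mean of their sex. The difference of -0.29 on the log2 scale was not called (SE 0.157, limma adjusted p = 0.311); 4.7% of tested genes were called there, 603 in number, which ran from 270 without Col6a2-/- 25 weeks male 1 to 983 without Col6a2-/- 5 weeks female 2. The test of whether the genotype difference changed with age gave 0.13 (SE 0.223, limma adjusted p = 0.968), where 0.492% of genes were called. That value became 0.015 without Col6a2-/- 5 weeks female 3 and 0.27 without Col6a2-/- 5 weeks female 2.

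Myh1, the IIX chain, was measured at higher levels in many Col6a2-/- mice, most of all in young males. In 5-week WT mice its lowest, median and highest values were 564, 886 and 1389 TPM, and in 5-week Col6a2-/- mice 765, 1295 and 1949 TPM. The 4 Col6a2-/- males had 1402, 1670, 1949 and 1258 TPM, and the 4 WT males 939, 1389, 564 and 802 TPM, so that 1 WT male reached into the Col6a2-/- range. The log2 difference at 5 weeks was 0.45 (SE 0.211, limma adjusted p = 0.110) and did not pass the threshold. Without the 4 libraries that stand apart it was 0.41 (adjusted p = 0.0451).

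At 25 weeks Myh1 ran from 241 over a median of 823 to 1036 TPM in WT mice and from 594 over 948 to 1191 TPM in Col6a2-/- mice. The ranges overlapped, and the log2 difference of 0.41 was not called (SE 0.211, limma adjusted p = 0.284); without WT 25 weeks male 4 it was 0.20. Within sexes it was 0.82 in 5-week males (adjusted p = 0.112) and 0.71 in 25-week males (adjusted p = 0.178), against 0.09 and 0.11 in females (adjusted p = 0.860 and 1). Without the 4 libraries that stand apart it was 0.61 in males and 0.21 in females at 5 weeks, and 0.29 and 0.33 at 25 weeks; WT 25 weeks male 4 alone moved the older males to 0.29. The genotype by sex term of Myh1 was 0.67 (SE 0.298, limma adjusted p = 0.9998) and 0.18 without those libraries, so the sexes were not shown to differ. In these 4 comparisons and the interaction 5.03%, 3.03%, 12.9%, 0.0078% and 0.0156% of genes were called, in the order named. Single libraries moved these counts: from 645 to 313 and 1003 in 5-week males without Col6a2-/- male 1 or 4, from 388 to 55 and 816 in 25-week males without Col6a2-/- 25 weeks male 1 or Col6a2-/- 5 weeks female 2, and from 1648 to 455 and 3865 in 5-week females without Col6a2-/- female 2 or 4.

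Myh2, the IIA chain, and Myh7, the slow chain, did not separate the genotypes. Myh2 had a median of 346 TPM (178 to 517) in 5-week WT and 409 TPM (231 to 540) in 5-week Col6a2-/- mice, and of 518 TPM (68.9 to 640.0) and 502 TPM (219 to 694) at 25 weeks. Its log2 differences were 0.25 (SE 0.309) and 0.19 (SE 0.309), with limma adjusted p of 0.573 and 0.784. Leaving out WT 5 weeks male 3 or 2 moved the first to 0.14 or 0.39, and leaving out WT 25 weeks male 4 moved the second to -0.17. Without the 4 libraries that stand apart Myh2 differed by 0.24 at 5 weeks and by 0.022 at 25 weeks. The WT range at 25 weeks contains the Col6a2-/- range except for the highest values.

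Myh7 had the widest spread of the 4 tested members. Its values were 27.7, 98.9, 46.6 and 42.6 TPM in 5-week WT females, 6.10, 66.1, 38.8 and 1.49 TPM in 5-week WT males, 22.5, 33.8, 68.9 and 19.8 TPM in 5-week Col6a2-/- females and 3.31, 79.3, 46.6 and 68.8 TPM in 5-week Col6a2-/- males. Single mice of the same group thus differed by over an order of magnitude in both male groups. The log2 difference was 0.28 (SE 0.645, limma adjusted p = 0.764), and 0.51 without the 4 libraries that stand apart (limma adjusted p = 0.606).

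At 25 weeks the Myh7 values were 80.8, 92.1, 36.4 and 80.0 TPM in WT females and 22.8, 20.7, 15.5 and 0.0895 TPM in WT males. They were 45.5, 52.2, 77.1 and 173 TPM in Col6a2-/- females and 38.1, 61.3, 42.2 and 22.0 TPM in Col6a2-/- males. The WT males were the lowest group, and in females the genotypes overlapped. The log2 difference of 1.07 (SE 0.645, limma adjusted p = 0.376) was not called, and without the 4 libraries that stand apart it was 0.34 (adjusted p = 0.793).

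Myh7b did not pass the filter of 1 TPM in 4 libraries. It ranged from 0.00336 over a median of 0.529 to 1.49 TPM, and in a fit over all 53801 genes without the filter its limma adjusted p was at least 0.307 in all 12 comparisons. Its median level was 0.602 TPM in 5-week WT, 0.475 TPM in 5-week Col6a2-/-, 0.357 TPM in 25-week WT and 0.735 TPM in 25-week Col6a2-/- mice. These levels are near the limit of what the libraries measure. The Myh7b share of the summed members at 25 weeks was 0.00833% ± 0.00533 (SD, n = 8) in WT and 0.0133% ± 0.0062 in Col6a2-/- mice (exact permutation p = 0.0498), and the difference did not pass without the libraries that stand apart (p = 0.191) or in 13 of 16 cases of a single library left out.

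**Figure D2:**
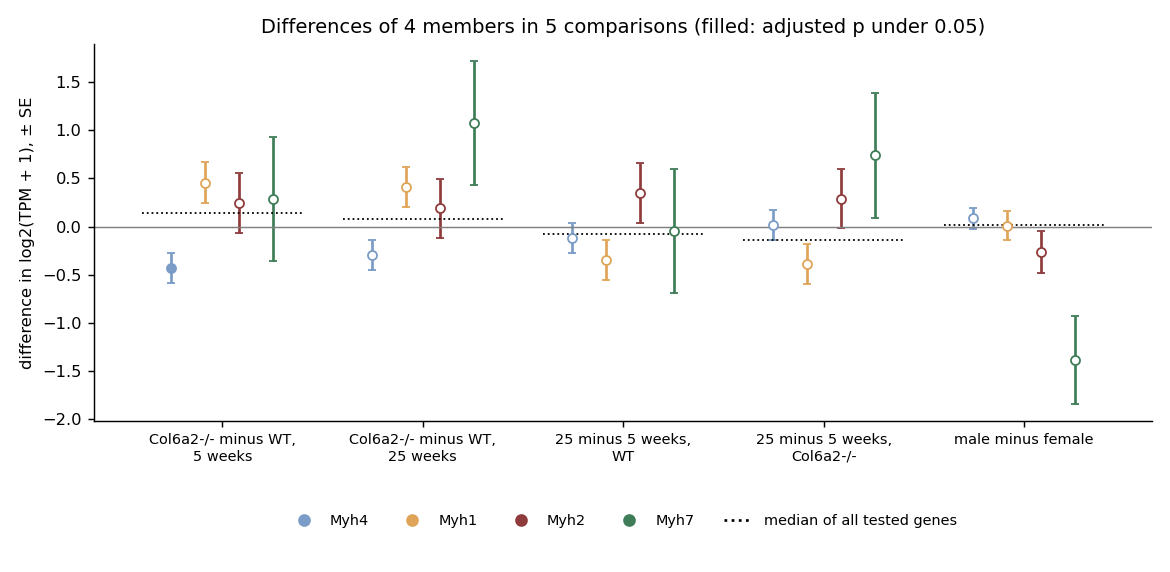
Differences of Myh4, Myh1, Myh2 and Myh7 in log2(TPM + 1), with standard errors, for genotype at each age, age in each genotype, and sex (n = 8 and 8 mice, or 16 and 16 for sex). Filled points have a limma adjusted p under 0.05, which holds for Myh4 at 5 weeks (-0.43), and the dotted lines show the median of all tested genes.

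Shares of the summed TPM of the 5 members do not depend on how a library is scaled. At 5 weeks Myh4 made up 79.1% ± 5.58 (SD, n = 8) of the sum in WT and 68.1% ± 8.85 in Col6a2-/- mice, a fall by 11.1 points (two-sided exact permutation test within sex, p = 0.0163). The WT values ran from 72.3 to 87.9% and the Col6a2-/- values from 56.7 to 86.1%; 7 of 8 Col6a2-/- mice lay below the WT mean of their sex. The counterpart was Myh1, with 14.7% ± 3.80 in WT and 23.5% ± 6.26 in Col6a2-/- mice, higher by 8.77 points (exact permutation p = 0.00816). Its WT values ran from 8.74 to 19.5% and its Col6a2-/- values from 10.3 to 32.3%, and 7 of 8 Col6a2-/- mice lay above the WT mean of their sex. The share of Myh2 was 5.46% ± 1.77 against 7.56% ± 2.64 (exact permutation p = 0.0841) and that of Myh7 0.655% ± 0.496 against 0.865% ± 0.688 (exact permutation p = 0.5).

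At 25 weeks Myh1 made up 13.0% ± 4.12 (SD, n = 8) in WT and 18.3% ± 4.33 in Col6a2-/- mice (5.32 points higher, exact permutation p = 0.0278), again higher in 7 of 8. The Myh4 share was 78.0% ± 7.31 in WT and 71.0% ± 7.0 in Col6a2-/- mice; this difference of -7.05 points did not pass (exact permutation p = 0.0661). Without the 4 libraries that stand apart the Myh4 difference was -12.5 points at 5 weeks and -6.96 points at 25 weeks (exact permutation p = 0.00245 for both), and the Myh1 difference 9.64 and 5.42 points (p = 0.00163 for both). Those libraries were picked after the data were seen and had the highest Myh4 share of their groups. Leaving them out narrows the spread by itself, so these p-values add no separate support. In all 25 share tests were made, and the p-values are not adjusted. The ratio tests below come on top of these, and their p-values are not adjusted either. With all libraries the smallest p that the exact test could give was 0.000408 (4900 arrangements). Without the 4 libraries that stand apart the genotype comparisons had only 1225 arrangements, so their smallest possible p was higher. Whether a share difference changed with age was not tested.

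**Figure D3:**
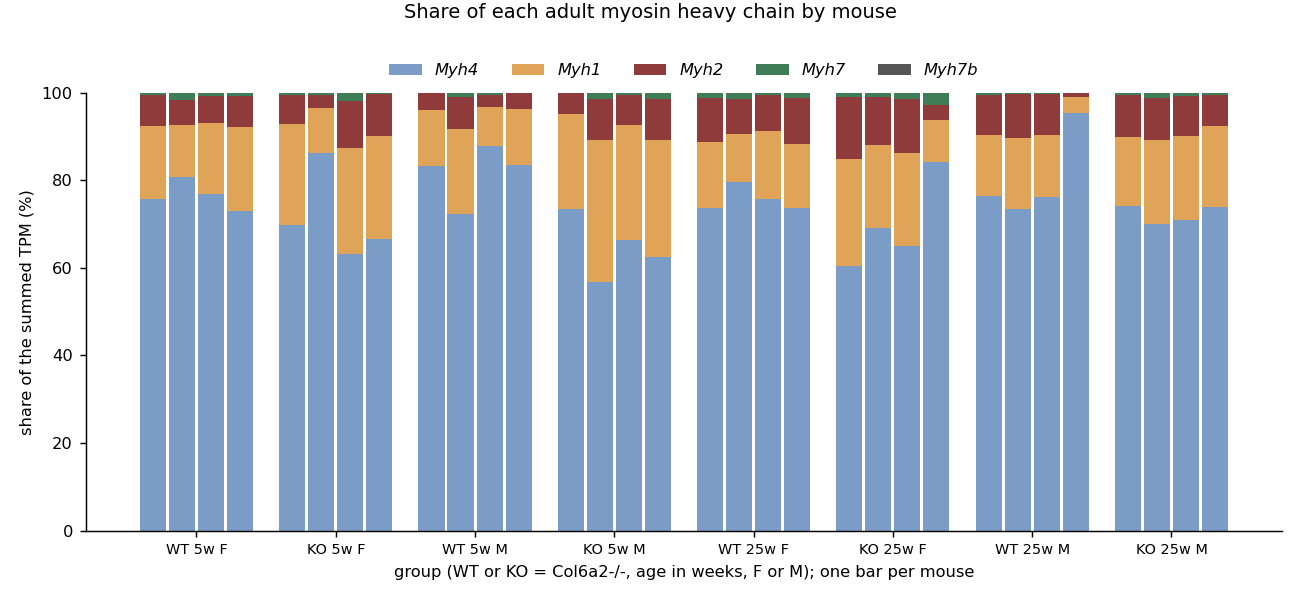
Share of Myh4, Myh1, Myh2, Myh7 and Myh7b in their summed TPM, in percent, with 1 stacked bar for each of the 32 mice, ordered by group. Myh4 was the largest segment in every mouse (56.7 to 95.4%), and the Myh1 segment was wider in most Col6a2-/- than WT mice at both ages.

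The ratio of Myh1 to Myh4 gives the same contrast in 1 number; it and the ratio of Myh1 to Myh2 were chosen after the data were seen. At 5 weeks the geometric mean of Myh1 to Myh4 was 1.84-fold higher in Col6a2-/- than in WT mice (two-sided exact permutation test within sex, p = 0.0147). It stayed between 1.71- and 2.11-fold with each of 16 libraries left out, and p stayed under 0.05 in all of these. At 25 weeks it was 1.63-fold higher (exact permutation p = 0.049), with p of at least 0.05 in 12 of 16 cases of a library left out. Without the libraries that stand apart it was 1.52-fold higher (exact permutation p = 0.00163). Those libraries had the highest Myh4 share of their groups, so this smaller p adds no separate support.

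Neighbouring Myh1 and Myh2 shifted against each other with age. The median ratio of Myh1 to Myh2 fell from 2.68 at 5 weeks to 1.51 at 25 weeks in WT mice and from 3.37 to 1.86 in Col6a2-/- mice. The older mice had 0.618-fold the ratio of the young ones in WT (exact permutation p = 0.00327) and 0.624-fold in Col6a2-/- (exact permutation p = 0.00163). Leaving out single libraries gave 0.558 to 0.645 and 0.590 to 0.646, with p under 0.05 each time. In males the ratio was 1.21-fold that in females (permutation test with 100000 draws, p = 0.0121). Between genotypes it was 1.16-fold at 5 weeks (exact permutation p = 0.0865) and 1.17-fold at 25 weeks (p = 0.253). Markers of other cells also moved with age, where 15.3% of all tested genes were lower in WT and 28.8% in Col6a2-/- mice: 2 of 4 fibroblast, 2 of 3 tenocyte and 2 of 3 endothelial markers were lower at 25 weeks in both genotypes, and 4 of 4 macrophage, 3 of 3 Schwann cell and 4 of 5 regenerating fibre genes in Col6a2-/- mice, where 0, 1 and 2 were lower in WT. Of 3 tested heart markers 1 was lower in WT and 2 in Col6a2-/- mice, and the mean summed heart list was 1422 TPM at 5 and 69.1 TPM at 25 weeks in WT and 1094 and 79.4 TPM in Col6a2-/- mice. Nearly all of that sum was Actc1, which developing skeletal muscle also makes (a mean of 658 of 666 TPM over all libraries). Mean Myh6 levels at 5 and 25 weeks were 4.26 and 6.06 TPM in WT and 5.79 and 7.09 TPM in Col6a2-/- mice. The part of other cells in the ratio was not tested.

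The single genes moved less clearly with age than their ratio. Myh1 had log2 differences between 25 and 5 weeks of -0.35 in WT and -0.39 in Col6a2-/- mice (SE 0.211, limma adjusted p = 0.271 and 0.153; the first was -0.14 without WT 25 weeks male 4), and Myh2 of 0.35 and 0.29 (SE 0.309, adjusted p = 0.478 and 0.491). Myh4 differed by -0.12 and 0.02 and Myh7 by -0.05 and 0.74, all with adjusted p of at least 0.393; the last was 0.25 without Col6a2-/- 5 weeks male 1. In these comparisons 19.8% of tested genes were called in WT and 34.2% in Col6a2-/- mice, and 0 of the 4 members. The share of Myh2 was 5.46% at 5 weeks and 8.25% ± 3.06 (SD, n = 8) at 25 weeks in WT (2.79 points higher, exact permutation p = 0.0355), and 7.56% and 9.54% ± 3.23 in Col6a2-/- mice (p = 0.212). WT 25 weeks male 4, with 1.02%, stood far below the other older WT mice at 7.83 to 10.5%. Without the 4 libraries that stand apart Myh2 was higher by 0.59 with age in WT (limma adjusted p = 0.00668).

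**Figure D4:**
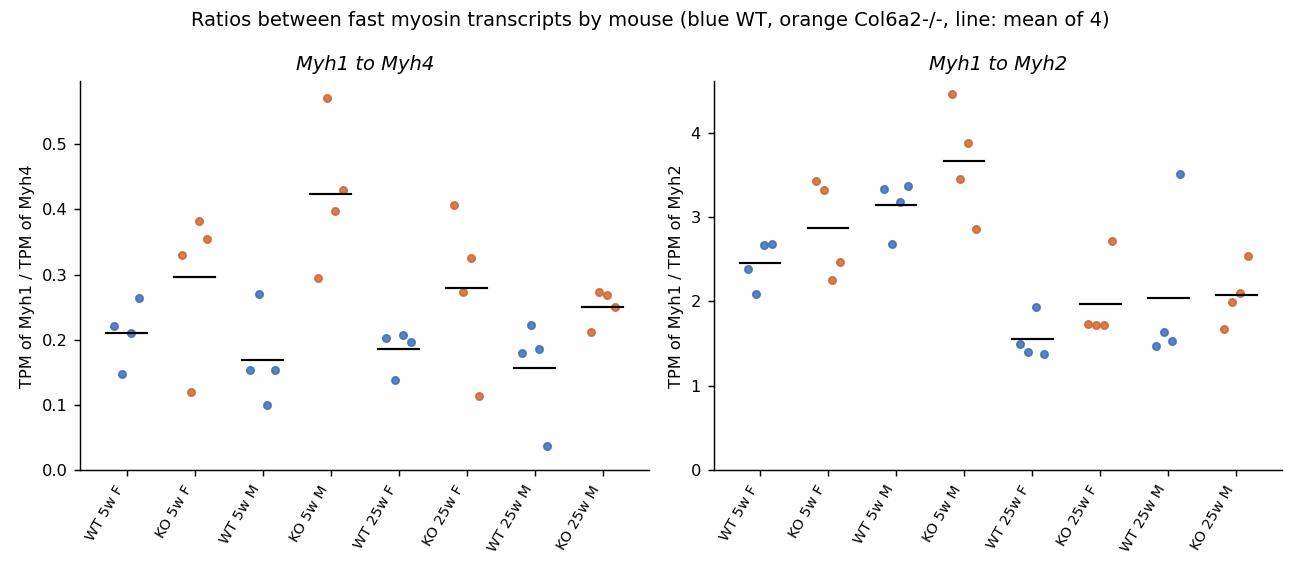
Ratio of the TPM of Myh1 to that of Myh4 (left) and of Myh2 (right) in each mouse, by group; points are mice and lines means of 4, and both axes start at 0. The left ratio was higher in most Col6a2-/- mice, and the right ratio was lower at 25 than at 5 weeks in both genotypes.

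Myh7 was measured at lower levels in males; its share passed the test and its level in the fit over all genes did not. Over both genotypes and ages, the lowest, median and highest Myh7 levels were 19.8, 49.4 and 173 TPM in 16 females and 0.0895, 30.5 and 79.3 TPM in 16 males. All 3 libraries under 5 TPM were male, while the upper parts of both ranges overlapped. The Myh7 share was 1.11% ± 0.656 (SD, n = 16) in females and 0.597% ± 0.492 in males (permutation test with 100000 draws, p = 0.0171), and 0.0379 without the 4 libraries that stand apart. The log2 difference of -1.38 (male minus female, SE 0.456) had a limma adjusted p of 0.110 (unadjusted 0.00516); 3.05% of genes were called. Myh7b had shares of 0.012% in females and 0.00742% in males (permutation p = 0.00456).

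Genes of the sarcomere that go with fast fibres were lower in Col6a2-/- muscle at 5 weeks. Of a list of 14 fast fibre sarcomere and calcium genes, 10 were lower and 0 higher (limma adjusted p under 0.05; 2.14% of all tested genes were lower, or 1479 in place of 274 genes after median-of-ratios scaling), with a median log2 difference of -0.32 against 0.15 over all tested genes. Tnnt3, fast troponin T, fell by 0.32 (SE 0.0837, limma adjusted p = 0.00617) from a median of 7955 to 6451 TPM. Myl1, the fast essential light chain, fell by 0.34 (SE 0.12, adjusted p = 0.0370). Pvalb, the calcium buffer parvalbumin, fell by 0.51 (SE 0.154, adjusted p = 0.0161). Mylpf, the fast regulatory light chain, was lower by 0.21 without passing (adjusted p = 0.129). The 7 others that fell, named after their values were seen, were Tnni2, Tnnc2, Pfkm, Myoz1, Tpm1, Actn3 and Ampd1. The number that fell was 12 of 14 without the libraries that stand apart, and 6 to 14 over the other settings tried, with 0 higher in all of them.

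At 25 weeks 0 of the 14 fast genes were called, with a median of -0.20 against 0.082 over all genes. That count depended on scaling: 9 of 14 were called lower after median-of-ratios scaling, and 3 of 14 without the libraries that stand apart. Of 12 slow fibre genes, 1 was higher at 5 weeks and 1 at 25 weeks, with medians of 0.31 and 0.74 against 0.15 and 0.082 over all genes. Without the libraries that stand apart these medians of the slow list were 0.46 and 0.22. Over all tested genes 25.4% and 4.7% were called. These were Casq2, slow calsequestrin, with 0.80 at 5 weeks (SE 0.242, limma adjusted p = 0.0166), and Pln, phospholamban, with 0.41 at 25 weeks (SE 0.108, adjusted p = 0.0264); both calls were lost after median-of-ratios scaling. Between the sexes Myl2, the slow regulatory light chain, was lower in males by 1.65 (limma adjusted p = 0.0461). Tnni1, slow troponin I, was lower in males by 1.25 (limma adjusted p = 0.0282). The 10 other slow genes were not called, where 3.05% of all tested genes were called by sex and 1.18% were lower in males. With single libraries left out, 0 to 6 slow genes were called.

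**Figure D5:**
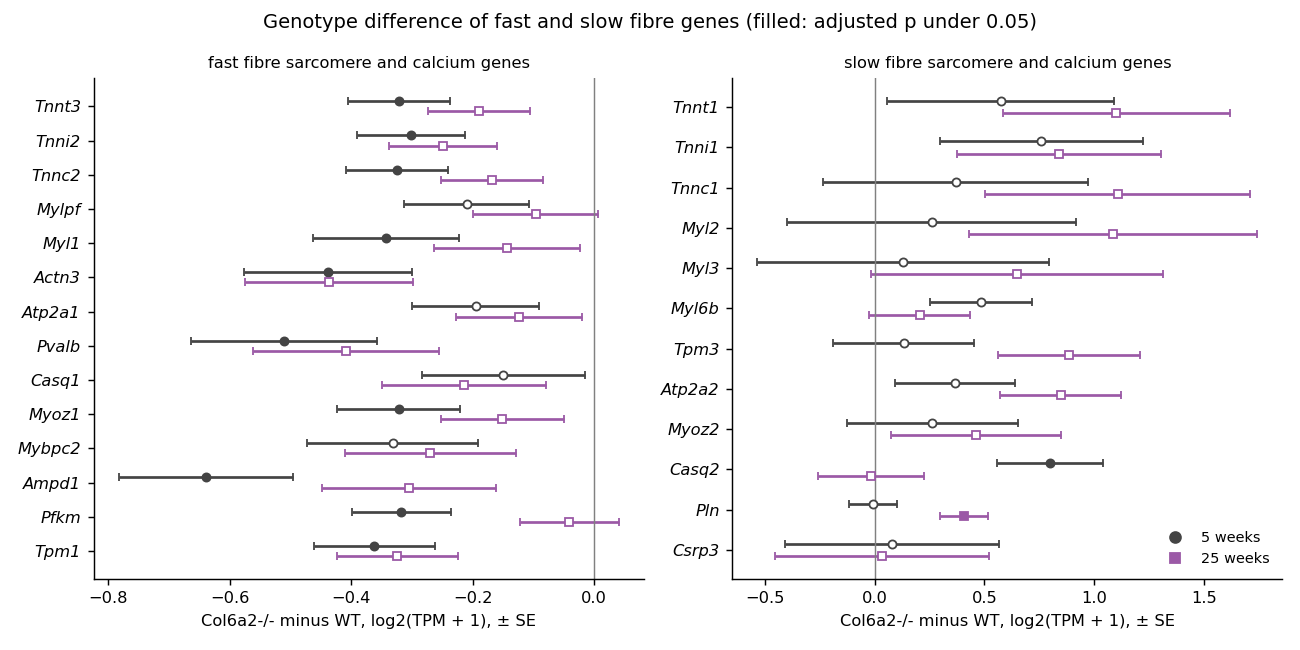
Difference between Col6a2-/- and WT mice in log2(TPM + 1), with standard errors, of 14 fast (left) and 12 slow fibre genes (right), at 5 weeks (dark circles) and 25 weeks (purple squares). Filled symbols passed limma's adjusted p of 0.05: 10 fast genes, all lower, and Casq2 at 5 weeks, and Pln at 25 weeks.

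Of the other myosin heavy chains, 8 of 9 were tested and Myh15 was not. By genotype 2 of 8 were called at each age, beside 25.4% and 4.7% of all tested genes. Myh3, the embryonic chain made by regenerating fibres, rose in Col6a2-/- mice from a mean of 1.47 to 12.3 TPM at 5 weeks (log2 difference 2.37, SE 0.159, limma adjusted p = 7.26e-12) and from 1.10 to 2.60 TPM at 25 weeks (0.74, adjusted p = 0.00752). Myh9, a non-muscle chain, rose by 0.52 and 0.39 (adjusted p = 0.00134 and 0.0395). Myh8, Myh6, Myh13, Myh10, Myh11 and Myh14 were not called by genotype, at mean levels of 109, 5.80, 9.16, 4.66, 11.2 and 2.17 TPM. Between the ages 3 of 8 were called in each genotype, beside 19.8% of all genes in WT and 34.2% in Col6a2-/- mice. With age Myh14, another non-muscle chain, rose by 0.63 in WT and 0.60 in Col6a2-/- mice (limma adjusted p = 0.000415 and 0.000316). In WT Myh9 fell by 0.39 and Myh13, the extraocular chain, by 0.53 with age (adjusted p = 0.0141 and 0.0488), and in Col6a2-/- mice Myh9 fell by 0.51 and Myh3 by 1.87 (adjusted p = 0.000866 and 6.39e-10).

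For regulators of fibre type and partners of the thick filament the background at 5 weeks was 25.4% of all tested genes called, 23.2% higher and 2.14% lower. Of 24 fibre type regulators 23 were tested, and at 5 weeks 3 were higher and 1 lower. Hdac4, a deacetylase that restrains MEF2, was higher by 0.45 (SE 0.117, limma adjusted p = 0.00594) and Mef2a, a MEF2 transcription factor, by 0.40 (SE 0.147, adjusted p = 0.0466), and Mafa was lower by 0.59 (SE 0.184, adjusted p = 0.0204). Mafa is a large Maf transcription factor. The regulators' median was -0.006 and at 25 weeks 0 were called. Of 14 thick filament genes 3 were higher and 2 lower at 5 weeks. Myom3, an M-band protein, was higher by 0.82 (adjusted p = 0.0250), the chaperone Hsp90aa1 by 0.54 (adjusted p = 0.0172) and the ubiquitin ligase gene Trim63 by 0.41 (adjusted p = 0.0156). The light chain kinase genes Mylk2 and Mylk4 were lower by 0.44 and 0.88 (adjusted p = 0.00457 and 0.0132). Quantile normalization changed these splits to 1 higher and 5 lower for the regulators and to 0 and 6 for the thick filament genes, as it did for all genes, from 2979 higher and 274 lower to 1413 and 1672.

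Several features overlap the members, and whether strand was used in counting is not given in the sources used here. Myhas (ENSMUSG00000085348, chr11:67211256-67237573, minus strand) is antisense to Myh1 over 13320 bases and reaches towards Myh4. Its lowest, median and highest levels were 29.0, 33.7 and 51.3 TPM in 5-week WT and 10.5, 16.4 and 31.3 TPM in 5-week Col6a2-/- mice, and the ranges overlapped. It fell by 1.05 on the log2 scale (SE 0.183, limma adjusted p = 0.000129), in the direction of Myh4 and not of Myh1. At 25 weeks it was 17.3 TPM (14.3 to 34.2) in WT and 14.4 TPM (8.55 to 16.2) in Col6a2-/- mice (-0.47, adjusted p = 0.139). In WT it fell by 0.84 with age (SE 0.183, limma adjusted p = 0.0015). The genotype difference was not shown to change with age (0.57, adjusted p = 0.633).

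9430073C21Rik, antisense to the end of Myh2, had a median of 0.517 TPM and fell with age by 0.32 in WT and 0.44 in Col6a2-/- mice (limma adjusted p = 0.0106 and 0.000425). Trpc4ap meets Myh7b over 37 bases at a median of 15.2 TPM and was not called in the 12 comparisons. Mir208b, Gm17428, Mhrt, Gm29015 and CT025533.2, which overlap Myh7 in whole or in part, were at most at 0.474 TPM. Mir499 in Myh7b was listed at 0 in all libraries.

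The genes most correlated with each member in log2(TPM + 1) were taken over the 32 libraries. These correlations are descriptions, since the libraries share group, depth and makeup. Those most like Myh4 were Mybpc2, fast myosin-binding protein C (r = 0.944), Klhl31 (0.921) and Pgm2 (0.920). Those most like Myh1 were Actn2, the alpha-actinin of Z-discs (0.931), Iqsec2 (0.887) and Got2, mitochondrial aspartate transaminase (0.862). For Myh2 they were Sdhb, a subunit of mitochondrial complex II (0.931), Fndc5 (0.914) and Smtnl1 (0.901). For Myh7 they were the slow troponins Tnnc1 (0.988) and Tnnt1 (0.966) and the light chain Myl2 (0.954), and for Myh7b Tpm3 (0.744) and, as for Myh7, Myl2 (0.712) and Tnnc1 (0.694). Among the members, within groups, Myh1 and Myh2 had r = 0.917, Myh2 and Myh4 -0.541, Myh1 and Myh4 -0.373, and Myh7 and Myh7b 0.487.

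In order of group means, Myh4 was highest in 5-week WT males (5543 TPM) and lowest in 25-week Col6a2-/- females (3781 TPM). Only the first step of that order, from 5143 to 6119 TPM down to 4508 to 4992 TPM in 25-week WT females, was without overlap; the next 6 steps overlapped. Myh1 ran from 1570 TPM in 5-week Col6a2-/- males to 649 TPM in 25-week WT males. Myh2 ran from 565 TPM in 25-week WT females to 304 TPM in 5-week WT males. Myh7 ran from 87.0 TPM in 25-week Col6a2-/- females to 14.8 TPM in 25-week WT males, and Myh7b from 0.906 to 0.235 TPM in the same groups. For these 4 all 7 neighbouring pairs overlapped.

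Other cell types differed along with genotype and age. By genotype 25.4% of all tested genes were called at 5 weeks and 4.7% at 25 weeks. All 4 macrophage markers were higher in Col6a2-/- mice at both ages (limma adjusted p under 0.05), and their mean summed level was 45.8 TPM (34.8 to 62.2) against 174 TPM (72.0 to 245) at 5 weeks and 46.7 TPM (28.0 to 83.5) against 103 TPM (78.2 to 151) at 25 weeks. Of 5 regenerating fibre genes, 4 were higher at 5 weeks, with a summed level of 125 TPM (106 to 147) against 158 TPM (98.0 to 220). Most of that sum was Myh8, which was not called, at a mean of 118 TPM in WT and 111 TPM in Col6a2-/- mice. The sum thus understates the rise of the 4 others, of which Myh3 went from a mean of 1.47 to 12.3 TPM. At 25 weeks 1 of the 5 was higher. Of 4 fibroblast markers 2 were higher at each age, and of 3 endothelial markers 2 at 5 weeks. The part of these cells in the lower Myh4 and fast fibre gene levels was not tested.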

How the data were processed

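Quadriceps RNA was sequenced as paired-end TruSeq libraries, 1 per mouse, per the labels' protocols. Per the submitters' processing notes the authors used FastQC, MultiQC, Trimmomatic, HISAT2, SAMtools and StringTie with GRCm38 (mm10); versions, annotation and strand setting are not given in the sources used here. The deposited tables hold signal (coverage), FPKM and TPM values per gene, per the file headers. TPM was summed per gene identifier. The tables hold no counts, so the count test planned for that case was not used. The 12817 genes that reached 1 TPM in 4 or more libraries were tested as log2(TPM + 1) with limma 3.58.1 in R 4.3.3, with 8 group means, a trended prior and Benjamini-Hochberg adjustment over all genes; fold changes on this scale understate those of low genes. The threshold was an adjusted p of 0.05. FPKM served as an alternative, and coverage gave relative depth. Shares and ratios were tested by exact permutation within sex (4900 arrangements). Members and gene lists were chosen with earlier results of these data known. The rule for named genes took the members, the 3 genes most correlated with each, features overlapping them, all listed myosin heavy chains and, per list, up to 4 genes of highest mean TPM and called genes where 5 or fewer were called. The values of 1 listed regulator are not reported here. The fit was tested on simulated data. Nothing says that the mice were from separate litters, so p-values measure only the spread between these mice. Alternatives were other pseudocounts, filters, scalings, weights, blocks and libraries left out.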

Additional observations from a re-analysis of the deposited data

Results flagged for a closer look

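In groups of 4 mice, 10 of 80 tests of a single outlying value (12.5%) passed Dixon's 95% critical value, where chance gives about 1 in 20. WT 25 weeks male 4 accounted for 6 of them. In this library Myh2 was at 68.9 TPM and 1.02% of the summed members, Myh4 at 6419 TPM and 95.4%, and Myh7b at 0.00336 TPM and 5.0e-05%. Its Myh7 level of 0.0895 TPM and its Myh1 level of 241 TPM were the lowest of all 32 libraries. The summed TPM of the 12 slow fibre genes was 22.3 there and 129 to 1641 in the 31 others. Tnnt1 (0.399 TPM), Tnnc1 (0.144 TPM) and Myl2 (0.549 TPM), all slow fibre genes, were also at their lowest.

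Col6a2-/- 5 weeks female 2 had an outlying Myh1 share of 10.3%, below its group mates at 23.0 to 24.1%. Col6a2-/- 5 weeks female 3 had an outlying Myh7 share of 1.96%. Myh7b was outlying at 0.386 TPM in WT 25 weeks female 4 and at a share of 0.00483% in WT 5 weeks female 3, both levels near the lower limit of measurement.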

How the results depend on the processing

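Over 88 values and tests of the members, Myhas, shares and ratios, 3081 alternatives were run; 2885 kept direction and side of the threshold, 62 lost the threshold, 34 gained it and 100 changed sign. Except where stated, the cause of a change was not tested. The fall of Myh4 at 5 weeks was -0.43 but not called without a filter (limma adjusted p = 0.161), with the replicate block (0.0547) and with only the libraries of the contrast (0.098), and -0.29 after quantile normalization (0.172). Median-of-ratios scaling gave Myh4 -0.41 at 25 weeks (limma adjusted p = 0.0312). The sign of near-zero values changed under scaling: Myh1 genotype by age 0.028 and Myh2 genotype by age 0.014 (median-of-ratios), 0.019 and 0.0057 (without the 100 most abundant genes), Myh4 with age in WT 0.0057 (quantile) and 0.022 (without mitochondrial and Rn7s genes), Myh1 by sex -0.0085 (median-of-ratios), -0.026 (quantile) and -0.028 (FPKM), Myh1 in 5-week females -0.14, -0.061 and -0.015 (median-of-ratios, without the 100 genes, without mitochondrial and Rn7s genes), and the sex by age term of Myh4 0.076 and 0.029 (the first 2 of these). Myh7 with age in WT became 0.037, 0.0063, 0.032 and 0.22 with median-of-ratios, quantile, pseudocount 10 and array weights, and the Myh4 genotype by sex term 0.092 with array weights.

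Without the 4 libraries that stand apart, chosen after seeing the data, Myh1 at 5 weeks was 0.41 (limma adjusted p = 0.0451) and Myh2 with age in WT 0.59 (0.00668). The sign changed for Myh7 genotype by age (-0.17), Myh7 with age in WT (0.72), Myh2 in 5-week females (0.082), Myh2 in 25-week females (0.17) and males (-0.12), Myh7 in 25-week females (-0.26), Myh4 genotype by sex (0.24), the Myh1 share by sex (-0.13 points) and the Myh7b share with age in WT (0.00106). Shares that passed then were Myh1 with age in Col6a2-/- (-5.36 points), Myh2 at 5 weeks (2.56), with age in Col6a2-/- (2.37) and by sex (-1.54), and Myh4 at 25 weeks (-6.96); log2 ratios that passed were Myh1 to Myh4 with age in Col6a2-/- (-0.41) and Myh1 to Myh2 at 25 weeks (0.29). The Myh7b share at 25 weeks no longer passed (0.00294), as with Myh3 and Myh8 in the denominator (0.00484). As log2 ratios to the 4 other members, the Myh2 share with age in WT lost its call (0.48), the Myh7 share at 25 weeks gained one (1.69), and Myh1 by sex (-0.043), Myh4 with age in WT (0.0041) and Myh7 with age in WT (-0.30) changed sign.

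Leaving out single libraries gave these ranges of log2 differences: Myh1 0.35 to 0.57, Myh2 0.14 to 0.39, Myh4 -0.56 to -0.31 and Myh7 -0.14 to 0.77 at 5 weeks; Myh1 0.20 to 0.52, Myh2 -0.17 to 0.38, Myh4 -0.38 to -0.21 and Myh7 0.54 to 1.28 at 25 weeks; Myh1 -0.25 to 0.065 and Myh2 -0.41 to 0.13 for genotype by age; Myh1 -0.45 to -0.14, Myh2 0.21 to 0.70, Myh4 -0.20 to -0.079 and Myh7 -0.48 to 0.48 with age in WT; Myh2 0.19 to 0.48, Myh4 -0.10 to 0.15 and Myh7 0.25 to 0.95 with age in Col6a2-/-; Myh1 -0.047 to 0.11 by sex. Within sexes Myh1 ran from -0.054 to 0.24 and Myh2 from -0.33 to 0.082 in 5-week females, Myh1 from -0.019 to 0.33, Myh2 from -0.39 to 0.17 and Myh7 from -0.26 to 0.37 in 25-week females, Myh1 from 0.29 to 0.92 and Myh2 from -0.12 to 0.87 in 25-week males, and the Myh4 genotype by sex term from -0.19 to 0.063. Shares, in points, ranged for Myh1 from 3.93 to 6.82 at 25 weeks, from -6.86 to -3.71 with age in Col6a2-/- and from -0.47 to 1.05 by sex. Those for Myh2 were 1.57 to 2.84 at 5 weeks, 2.37 to 3.86 and 1.25 to 3.10 with age in WT and Col6a2-/-, and -1.84 to -0.75 by sex. Those for Myh4 were -9.46 to -4.55 at 25 weeks and -3.62 to 0.056 with age in WT, for Myh7 0.228 to 0.533 at 25 weeks, and for Myh7b -0.000579 to 0.00155 and 0.00367 to 0.00613 at 5 and 25 weeks, -0.000879 to 0.000898 and 0.00314 to 0.00560 with age in WT and Col6a2-/-. The log2 ratio of Myh1 to Myh4 ranged from 0.41 to 0.90 at 25 weeks, from -0.36 to 0.066 with age in WT and from -0.60 to -0.22 with age in Col6a2-/-, and that of Myh1 to Myh2 from 0.16 to 0.26 at 5 weeks and from 0.14 to 0.37 at 25 weeks.

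Counts of called list genes moved by over 1.5 times as follows. At 5 weeks they ranged over all settings from 6 to 14 (fast), 0 to 2 (slow), 1 to 6 (regulators) and 1 to 8 (thick filament, 3 without the libraries that stand apart). At 25 weeks they ranged from 0 to 9 (fast, with 1, 3, 4 and 7 under other settings), 0 to 2 (slow), 0 to 3 (other myosins, regulators and thick filament). With age in WT they reached 8 (fast), ran from 2 to 10 (regulators, with 5, 6, 8 and 9) and fell to 1 (other myosins); with age in Col6a2-/- they ran from 3 to 11 (regulators, with 8 and 10), 1 to 4 (slow) and 2 to 5 (other myosins). By sex they ran from 0 to 6 (slow, with 1 and 4) and were at most 3 elsewhere. Median-of-ratios scaling changed the split of all called genes from 573 higher and 30 lower to 750 and 532 at 25 weeks, from 573 and 1963 to 1710 and 1953 with age in WT, and from 694 and 3695 to 2104 and 2319 with age in Col6a2-/-. Leaving out single libraries moved the number of all called genes from 63 to between 49 and 229 for genotype by age, from 391 to between 327 and 693 by sex and from 440 to between 176 and 3821 for sex by age; the highest came without Col6a2-/- 5 weeks female 4 for the first and female 2 for the other two. Same-numbered mice did not deviate together in every pair (correlations of -0.0612 to 0.234, above 0 in 13 and over 0.1 in 8 of 16 pairs; 8 of 16 libraries were closest to their own number, where chance gives about 4). Not all pairs were over 0.1 and no label ties the numbers, so they were not taken to pair the mice; besides Myh4 at 5 weeks, the block changed no member's call, and gave 2 slow genes at 25 weeks and 6 by sex. Median coverage was 190 reads deep for Myh7 and 2.7 for Myh7b, which limits Myh7b.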
